A study of Mus musculus with 2 samples.

Results

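The cells described here transcribed the genes of cell division. They were picked from all other cells of the mouse aortic arch, whatever their type, by 6 genes that proliferating cells transcribe: Mki67, Top2a, Birc5, Ube2c, Pclaf and Nusap1. A cell was called cycling when at least 3 of these 6 genes had at least 1 unique molecular identifier (UMI, 1 counted mRNA molecule). Among 8155 cells kept by the filters, 140 met this rule, 77 from ND and 63 from HFD.

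Both libraries came from male Apoe-/- C57BL/6 mice, which lack apolipoprotein E and accumulate cholesterol-rich lipoproteins, so the deletion was shared by the 2 groups and no wild-type animal was part of the comparison. The animals were 16 weeks old. ND stands for the normal chow diet and HFD for the high-fat, high-cholesterol diet. Each diet is represented by 1 library, made from 2 pooled aortas, so no difference between the diets has a replicate check and no test between them could be made. Intervals are exact 95% intervals (Clopper-Pearson for shares, Poisson for counts) that cover counting error only.

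A dividing cell passes through G1, in which D-type cyclins respond to growth signals, then S phase, in which licensed origins fire and the genome is copied, and then G2 and mitosis, in which B-type cyclins with Cdk1 drive chromosome condensation, spindle assembly and separation. The genes of the S phase are largely switched on by E2F factors, those of G2 and mitosis by the MuvB complex with B-Myb and FoxM1, and the mitotic proteins are then destroyed by the anaphase-promoting complex. In the healthy adult artery wall most cells rest, while in atherosclerosis macrophages, lymphocytes, endothelial cells and smooth muscle cells are all known to divide at low rates.

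The 6 genes that made the choice were present in most chosen cells, which is a description of the rule and not a result. Mki67, which encodes the Ki-67 coat protein of mitotic chromosomes, was found in 72 of 77 ND and 60 of 63 HFD cycling cells, at a summed level of 302 and 291 CPM (UMIs of the gene per 1000000 UMIs of the cells summed), against 2.03 and 2.43 CPM in the other cells. Top2a, the topoisomerase that untangles replicated DNA, stood at 458 and 447 CPM, and Pclaf, a clamp-associated factor of replicating DNA, at 432 and 454 CPM. Ube2c, the ubiquitin-conjugating enzyme of the anaphase-promoting complex, stood at 322 CPM in ND and 398 CPM in HFD, and Birc5, or survivin, at 220 and 301 CPM. Nusap1, a spindle-associated protein, was the least abundant, at 151 and 147 CPM.

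Cells near the border of the rule were not few beside the members. A rule of at least 2 genes would have called 96 cells in ND and 88 in HFD, in place of 77 and 63. In ND, 19 cells had exactly 2 of the 6 genes and 12 had exactly 3, and in HFD these numbers were 25 and 6. The summed CPM of 49 G2/M genes without any of the 6 rule genes was 1870 in the ND cells with 2 genes and 3966 in those with 3, and in HFD 1554 and 3339. Cells with none of the 6 genes stood at 1183 CPM in ND and 1086 CPM in HFD. The cells with 2 genes thus lay closer to the resting cells than those with 3.

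The label was also set against markers of basal epithelial cells, the keratin-rich stem cells of airway lining, because the study described cycling cells of this tissue under a name that refers to them. Krt5, Krt14, Krt15, Krt17 and Sox2 had 0 UMIs in the cycling cells of both libraries. Trp63 and Aqp3 had 0 UMIs in ND and 1 UMI each in HFD, and Ngfr had 5 UMIs in ND and 0 in HFD. The non-cycling ND cells held 100 UMIs of Krt5 and 411 of Krt15, so these genes could be detected in that library. The cells are called cycling cells throughout.

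Cycling cells made up a small part of each library, and a larger part of the HFD one. Their share was 1.42% of 5416 kept cells in ND (interval from 1.12 to 1.77%) and 2.30% of 2739 in HFD (1.77 to 2.93%). The rule needs transcripts to be seen, so it depends on depth. The cycling cells held a median of 10768 UMIs in ND and 8447 in HFD, against 3692 and 5307 in the other cells. No cell under 2500 UMIs was called cycling, among 1312 such cells in ND and 99 in HFD. Between 2500 and 5000 UMIs the share was 0.378% in ND and 1.02% in HFD, between 5000 and 10000 UMIs it was 1.88 and 1.81%, and between 10000 and 20000 UMIs 9.47 and 7.63%. Above 20000 UMIs, 10 of 91 ND cells and 9 of 27 HFD cells were cycling. The HFD share was above the ND share in the lowest filled and the highest depth class and below it in the 2 classes between. After every cell had been thinned to 1000 UMIs the shares fell to 0.280% (0.157 to 0.462%) in ND and 0.694% (0.418 to 1.08%) in HFD, with 63 shallower ND cells left out and none in HFD. From such shares, more division and fewer cells of the types that do not divide cannot be told apart.

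The cycling cells were of many types. The type was read from 17 marker lists that contain none of the 6 rule genes, and a cell was called after a list when at least 3 of its markers had a UMI and no other list reached 3. In ND, 13 cycling cells were T cell-like, 9 dendritic cell-like, 7 endothelial-like, 6 macrophage-like, 3 B cell-like, 2 fibroblast-like and 2 neutrophil-like, and 1 had no lineage. In HFD, 16 were T cell-like, 5 endothelial-like, 4 dendritic cell-like, 4 macrophage-like, 1 fibroblast-like, 1 B cell-like and 1 natural killer-like. The other 34 ND and 31 HFD cycling cells were mixed, that is, at least 2 lists reached 3 markers. No cycling cell was epithelial-like, mesothelial-like, erythroid-like, adipocyte-like or mast cell-like, and none was smooth muscle-like without a second list. Each of these calls held at most 29 kept cells in ND and 13 in HFD, too few to show whether such cells divide.

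**Figure D1:**
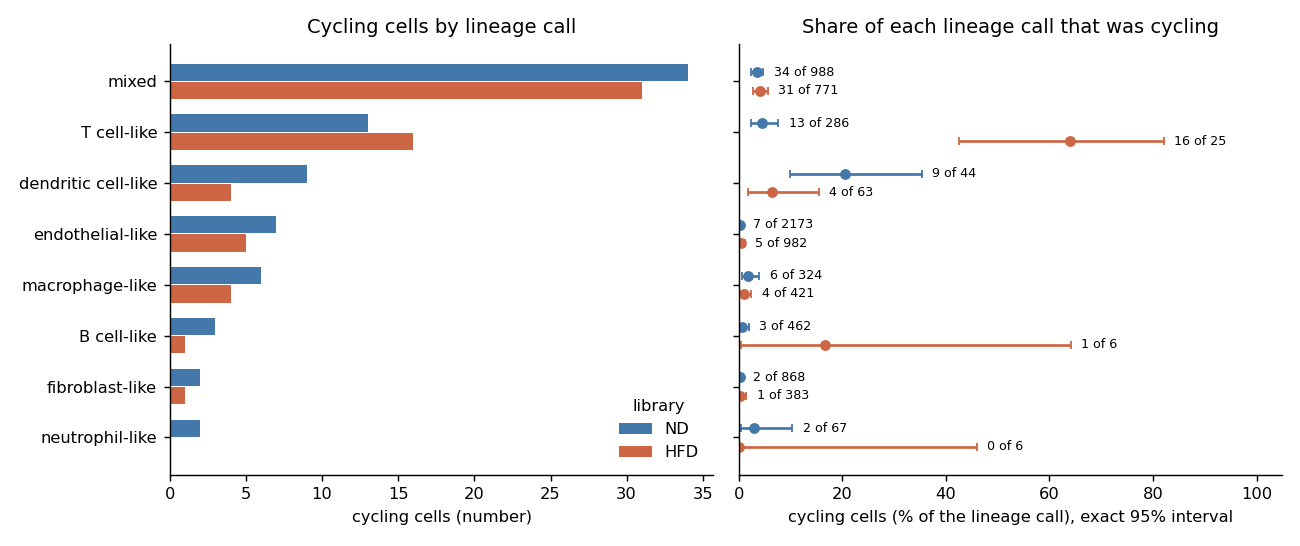
Left, number of cycling cells by lineage call in the ND and HFD libraries. Right, cycling cells as a percentage of all kept cells with that call, with exact intervals, where the label gives the cycling cells of all cells; of the calls shown, T cell-like cells differed most between the libraries, with 13 of 286 in ND and 16 of 25 in HFD.

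The mixed cycling cells were deep cells. Their median was 14351.5 UMIs in ND and 11906 in HFD, against 6203 and 6334 in mixed cells that were not cycling. The endothelial list was among those reached in 22 of 34 mixed cycling cells of ND and 15 of 31 of HFD, the T cell list in 8 and 13, the B cell list in 11 and 4, and the smooth muscle and pericyte list in 5 and 9. Among mixed cycling cells that reached exactly 2 lists, the most frequent pairing was endothelial with T cell, in 6 HFD and 2 ND cells. Next, with 4 cells each, came macrophage with dendritic cell, in 4 HFD cells and no ND cell, and B cell with plasma cell. These last 2 related types were paired in 1 HFD and 3 ND cells. Cells in which such a pair came with further lists are not counted here. Mixed markers can come from 2 cells in 1 droplet. Among the cycling cells, 19.5% in ND and 14.3% in HFD had a doublet score in the top 6% of their library, against 6.35 and 6.65% of the other cells, and what part doublets had in the mixed calls was not tested further. A call counts any UMI as a marker, so free RNA can add to it. Among other cells called after a different single list, at least 1 endothelial marker was found in 29.9% in ND and 33.1% in HFD, at least 1 T cell marker in 6.47 and 4.35%, at least 1 B cell marker in 12% and 20.4% and at least 1 smooth muscle and pericyte marker in 30.4 and 39.7%. Of such cells with at least 10000 UMIs, 62.3% in ND and 53.4% in HFD held a smooth muscle and pericyte marker. Its part in the mixed calls was not tested. When each mixed cell was instead given to the list with the most markers, the endothelial-like group grew to 21 ND and 17 HFD cells, the T cell-like group to 16 and 23, the B cell-like group to 9 and 1 and the macrophage-like group to 9 and 10.

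The share of a lineage that was cycling differed widely between lineages. It was under 1% in the endothelial-like and fibroblast-like cells of both libraries. Of endothelial-like cells, 0.322% cycled in ND (7 of 2173, interval from 0.130 to 0.663%) and 0.509% in HFD (5 of 982, 0.166 to 1.18%). Of fibroblast-like cells, 0.230% (2 of 868) and 0.261% (1 of 383) did so. Macrophage-like cells cycled at 1.85% in ND (6 of 324, 0.683 to 3.99%) and 0.95% in HFD (4 of 421, 0.259 to 2.42%), with overlapping intervals. B cell-like cells cycled at 0.649% in ND (3 of 462), and HFD held only 6 such cells, 1 of them cycling.

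At full depth, dendritic cell-like cells and T cell-like cells cycled at higher shares. Among dendritic cell-like cells the share was 20.5% in ND (9 of 44, interval from 9.80 to 35.3%) and 6.35% in HFD (4 of 63, 1.76 to 15.5%). Those not cycling held a median of 7084 UMIs in ND and 5614 in HFD, against 3336 and 5114 in endothelial-like cells. Thinned to 1000 UMIs, 1 dendritic cell-like cell remained cycling in each library, 2.27% in ND and 1.59% in HFD. The intervals of these thinned shares overlapped those of endothelial-like cells (0.0925 and 0.102%). No higher dendritic cell-like share is therefore read at equal depth. Among T cell-like cells the share was 4.55% in ND (13 of 286, 2.44 to 7.65%) and 64.0% in HFD (16 of 25, 42.5 to 82.0%). This gap stayed after thinning, with 8 of 285 in ND (2.81%, 1.22 to 5.46%) and 9 of 25 in HFD (36%, 18.0 to 57.5%). The T cell-like cells that were not cycling numbered 273 in ND and 9 in HFD, and the cycling ones 13 and 16. The libraries held 5416 and 2739 kept cells, so the cycling T cell-like cells were also a larger part of all kept cells in HFD. T cell-like cells were 5.28% of all kept cells in ND and 0.913% in HFD.

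The cycling T cell-like cells carried transcripts of developing thymocytes. Dntt, the polymerase that adds untemplated bases at antigen receptor joints, was found in 4 of 13 ND and 7 of 16 HFD cycling T cell-like cells, at 237 CPM (149 to 359) and 450 CPM (331 to 598). In the other T cell-like cells it was found in 10 of 273 ND cells and 2 of 9 HFD cells, at 22.6 CPM (12.9 to 36.7) and 93 CPM (25.3 to 238). In both libraries the intervals of cycling and other cells did not overlap. These intervals treat UMIs as independent and leave out the spread between cells, and the UMIs came from few cells, in HFD from 7 of 16 and 2 of 9. Rag1, part of the recombinase that rearranges the receptor genes, stood at 129 CPM (66.8 to 226) in the cycling and 42.4 CPM (28.6 to 60.5) in the other ND T cell-like cells. In HFD these levels were 144 CPM (80.4 to 237) and 93 CPM (25.3 to 238), with overlapping intervals. Arpp21, a phosphoprotein gene also active in immature thymocytes, stood at 119 against 15.6 CPM in ND and 153 against 93 CPM in HFD, where the intervals overlapped. Of endothelial-like cells outside the cycle, which should lack these genes, Dntt was found in 1 of 2166 in ND and 3 of 977 in HFD, and Rag1 in 0 and 1, at median depths of 3336 and 5114 UMIs against 4546 and 5220 UMIs in the cycling T cell-like cells.

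Coreceptor and receptor genes were compared in the same way. Cd8b1, which encodes the CD8 beta chain, was found in 10 of 13 ND cycling T cell-like cells at 464 CPM (335 to 624), and in 50 of 273 others at 133 CPM (107 to 163). In HFD it was found in 10 of 16 cycling cells at 345 CPM (241 to 477) and in 4 of 9 others at 163 CPM (65.4 to 335), with overlapping intervals. Il7r, the interleukin-7 receptor of resting and memory T cells, showed the opposite order. It was found in 3 of 13 cycling cells but 166 of 273 others in ND, at 53.9 CPM (17.5 to 126) against 741 CPM (679 to 807). In HFD it stood at 47.9 CPM (15.6 to 112) in cycling cells and 302 CPM (161 to 517) in others. Icos, a costimulatory receptor of activated T cells, stood at 75.5 CPM in cycling and 363 CPM in other ND T cell-like cells, and at 67.0 and 46.5 CPM in HFD, with overlapping intervals. Trdc, the constant region of the delta chain of gamma-delta T cells, was at 21.6 against 322 CPM in ND and at 134 against 116 CPM in HFD, where the intervals again overlapped. Not every thymocyte gene was there, since Ptcra, the pre-T alpha chain, had 0 UMIs in the 13 ND cells and 2 UMIs in the 16 HFD cells, while 1 other HFD cell held 17.

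**Figure D2:**
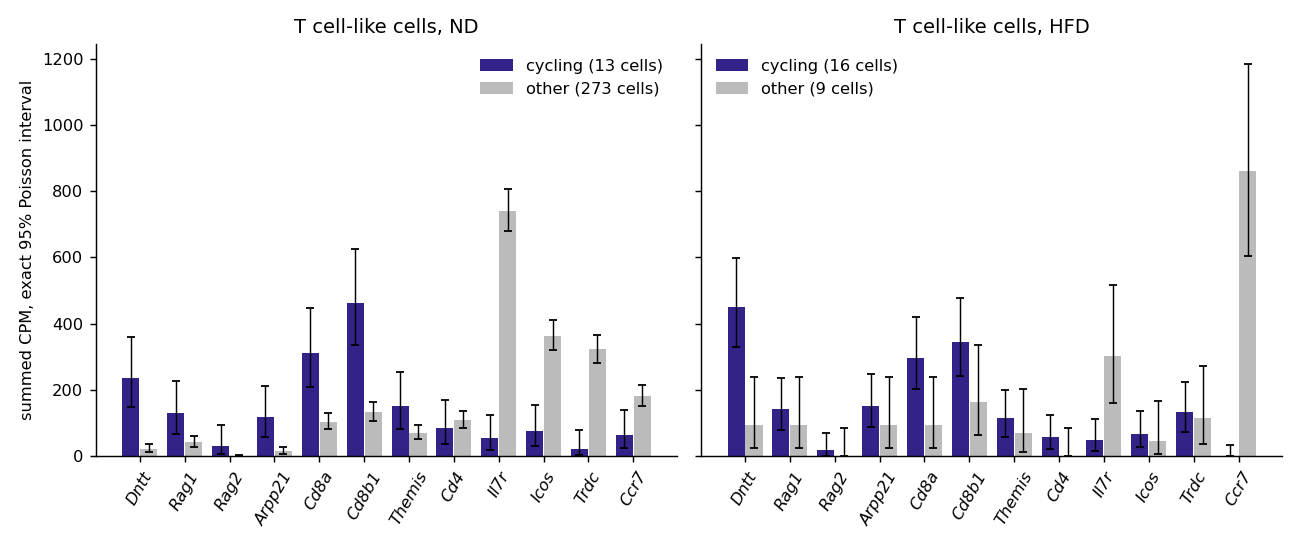
Summed CPM of 12 T cell genes in cycling and other T cell-like cells of the ND (left) and HFD (right) libraries, bars from 0 with exact Poisson intervals. Dntt stood higher and Il7r lower in the cycling cells of both libraries, with intervals apart that leave out the spread between cells. Cd8b1 stood higher in ND with intervals apart, while its HFD intervals overlapped. The 9 other HFD cells gave wide intervals, with most Ccr7 UMIs, the gene of a homing receptor, in 1 cell.

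Dntt and Rag1 were found in 9 of the 77 ND and 18 of the 63 HFD cycling cells, counting either gene and any lineage. Of all kept cells with a UMI of either gene, 9 of 38 were cycling in ND (23.7%, interval from 11.4 to 40.2%) and 18 of 37 in HFD (48.6%, 31.9 to 65.6%). Their median depth was 3586 UMIs in ND and 5492 in HFD. After thinning, 3 of 37 remained cycling in ND and 11 of 37 in HFD. Cells with no UMI of either gene were cycling in 1.26% (68 of 5378, 0.983 to 1.6%) in ND and 1.67% (45 of 2702, 1.22 to 2.22%) in HFD. The shares of the diets lay nearer to each other in these cells than in all cells (1.42 and 2.30%). The intervals of the diets overlapped in these cells and, narrowly, in all cells. What part the cells with Dntt or Rag1 had in the difference between the diets was not tested. No B cell-like cell held a UMI of Dntt or Rag1, and Igll1, a surrogate light chain gene of B cell precursors, had 0 UMIs in all kept cells.

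Lyve1 and Trem2 stood at different levels in the few cycling macrophage-like cells of the 2 libraries. In ND the 6 cycling macrophage-like cells held genes of resident macrophages: Lyve1, a hyaluronan receptor, stood at 364 CPM (233 to 542), Folr2, a folate receptor, at 440 CPM and F13a1, coagulation factor XIII A, at 440 CPM (295 to 632). The lipid-associated genes Gpnmb and Spp1 had 0 UMIs there, which allows up to 55.9 CPM by the exact interval. Folr2, F13a1, Gpnmb and Spp1 are given for ND only, so no difference between the libraries is read from them. Timd4, Cbr2, Gas6, Fabp5, Cd9 and Abcg1, of the same resident and foam macrophage lists, are not given. No change of macrophage type between the diets is therefore read from this part of the lists. In HFD the 4 cycling macrophage-like cells had 0 UMIs of Lyve1, which allows up to 91.6 CPM, while Trem2, the lipid receptor of foam cells, was found in 4 of 4 cells at 645 CPM (422 to 946), against 137 CPM (62.4 to 259) in ND, although 16 of its 26 HFD UMIs were in 1 cell. Lgals3, or galectin-3, stood at 5609 CPM in HFD and 637 CPM in ND, with 187 of its 226 HFD UMIs in 1 cell. The macrophage-like cells that were not cycling showed the same order, with Trem2 at 173 CPM in ND and 617 CPM in HFD and Lyve1 at 511 and 235 CPM.

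The dendritic cell-like members held genes of the cross-presenting (type 1) class in HFD and of more than 1 class in ND. In HFD, Flt3, the growth factor receptor of dendritic cells, and the type 1 genes Xcr1, Clec9a, Batf3 and Wdfy4 were each found in 4 of 4 cycling cells, and Cd209a, a lectin of type 2 cells, in 0 of 4. In ND, Xcr1 was found in 3 of 9, Clec9a in 4 of 9, Batf3 in 6 of 9, Wdfy4 in 8 of 9 and Cd209a in 3 of 9. Among HFD dendritic cell-like cells that were not cycling, Xcr1 was found in 16 of 59 and Cd209a in 28 of 59. Since these genes belong to the list that named the cells, their presence is a description. The dendritic cell list was also reached in 9 ND and 7 HFD mixed cycling cells, which are left out here. Of the HFD ones, 4 reached only the macrophage list besides. Whether they would change the classes seen was not tested.

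The 2 neutrophil-like cycling cells of ND carried the secondary granule genes that neutrophils make while they mature. Camp, which encodes the cathelicidin peptide, and Ngp, or neutrophilic granule protein, were found in both cells and Ltf, lactoferrin, as well. Among the 65 neutrophil-like ND cells that were not cycling, Camp was found in 0, Ngp in 1 and Ltf in 1. Cxcr2, the chemokine receptor of mature neutrophils, had 0 UMIs in the cycling cells and was found in 37 of the 65 others. Since a list of neutrophil genes named the cells, the presence of such genes in them is in part a description. Of the 2 cells, 1 was also among the cells with the top doublet scores of its library. Whether the 2 cells were immature was not tested. The counts of Camp (1578 UMIs) and Ngp (1300 UMIs) over all ND cycling cells came from 3 cells, and HFD cycling cells had 0 UMIs of either.

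The 7 ND and 5 HFD endothelial-like cycling cells had a capillary pattern. The endothelial list was also reached in 22 ND and 15 HFD mixed cycling cells, which are left out here. Gpihbp1, which anchors lipoprotein lipase on capillary walls, and Cd36, a fatty acid receptor, were found in 7 of 7 ND and 5 of 5 HFD cells. Gpihbp1 stood at 1678 CPM in cycling and 2221 CPM in other ND cells, and at 1890 and 2147 CPM in HFD. Apln, the peptide apelin of sprouting tip cells, was higher in the cycling cells of both libraries, at 167 CPM (88.6 to 285) against 20.7 CPM (17.9 to 23.8) in ND and 346 CPM (194 to 570) against 18.7 CPM (15.3 to 22.7) in HFD, where 11 of its 15 UMIs were in 1 cell. It was found in 5 of 7 and 3 of 5 cycling cells and in 103 of 2166 and 38 of 977 others. Its receptor gene Aplnr stood at 115 against 50.4 CPM in ND and 92.2 against 16.0 CPM in HFD. Vwf, the von Willebrand factor of larger vessels and veins, had 0 UMIs in the 7 and 5 cycling cells, which allows up to 47.2 CPM in ND and 85.0 CPM in HFD, against 226 and 150 CPM in the others. Only 316 of 2166 other ND cells and 104 of 977 other HFD cells held a UMI of Vwf, so most endothelial-like cells lacked it whether cycling or not. Prox1, the regulator of lymphatic endothelium, also had 0 UMIs in the cycling cells.

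The machinery of division was then followed gene by gene. For this the summed CPM of the cycling cells was set against that of other cells of the same library, weighted to the same lineage mix, and 155 genes in 10 lists by role were counted, none of them a rule gene. A gene entered when its observed and expected UMIs came to at least 10. In ND, 131 of 151 such genes were at least 2-fold higher in cycling cells, while 7.46% of all 10689 genes were, and no list gene was at least 2-fold lower, against 7.97% of all genes. In HFD, 125 of 148 were at least 2-fold higher, against 12.3% of all 9768 genes, and 3 were at least 2-fold lower, against 9.34%. These cells were chosen by genes of the same program, so the counts describe the cells and are no test. The HFD reference for the T cell-like members rested on 9 cells, and 31 mixed cells were weighted against mixed cells of other makeup.

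**Figure D3:**
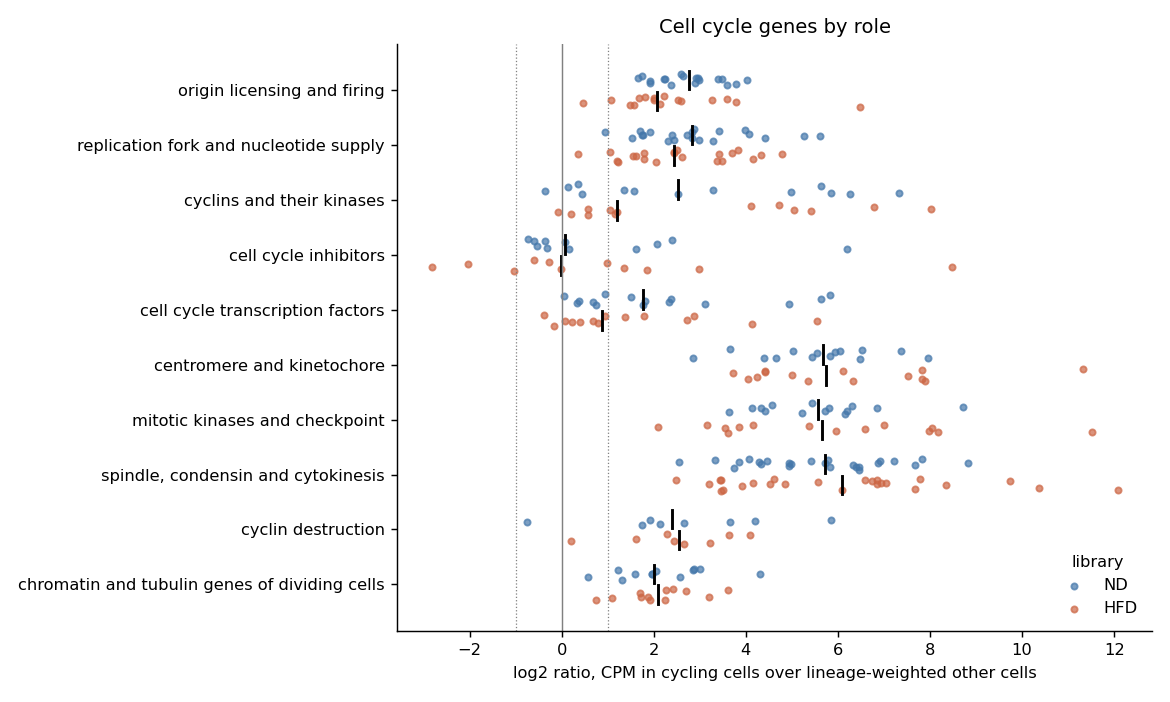
Each point is 1 cell cycle gene, placed by its log2 ratio of CPM in cycling cells over lineage-weighted other cells of the same library; black bars are list medians and dotted lines mark 2-fold. Genes of the centromere, the mitotic kinases and the spindle had medians between 5.58 and 6.09, and the median of the inhibitors was 0.08 in ND and -0.01 in HFD, with genes past 2-fold above it in both libraries and below it in HFD.

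The genes that prepare and copy DNA stood moderately higher in cycling cells. All 18 genes of origin licensing and firing that entered in ND and 15 of 16 in HFD were at least 2-fold higher, with a median log2 ratio of 2.77 and 2.08. Mcm5, a subunit of the replicative helicase, stood at 140 CPM against an expected 11.6 CPM in ND and at 108 against 23.2 CPM in HFD. Gmnn, or geminin, which blocks a second licensing, stood at 96.8 against 8.65 CPM and 110 against 11.5 CPM. Of the fork and nucleotide genes, 20 of 21 were at least 2-fold higher in each library, with medians of 2.84 and 2.45. Rrm2, the small subunit of ribonucleotide reductase, was at 138 against 2.82 CPM in ND and 150 against 13.4 CPM in HFD. Pcna, the sliding clamp, which resting cells also transcribe, was at 304 against 93.9 CPM and 272 against 118 CPM, a smaller ratio.

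The 3 mitotic lists had larger median ratios than the S phase lists. Several rule genes, among them Mki67, Ube2c and Nusap1, serve mitosis themselves, so the rule may favour this order, which is a description. The 14 centromere and kinetochore genes that entered, the 14 mitotic kinase and checkpoint genes and the 25 spindle, condensin and cytokinesis genes were all at least 2-fold higher in both libraries. Together the 25 spindle genes had 1907 UMIs in ND cycling cells against 101 expected, and 1416 against 80.1 in HFD. The kinase and checkpoint genes had 657 against 20.3 UMIs and 514 against 24.2 UMIs. The median log2 ratios of these 3 lists were 5.69, 5.58 and 5.73 in ND and 5.74, 5.66 and 6.09 in HFD. Most of their genes had fewer than 3 expected UMIs, and with the expected count raised to a floor of 3 UMIs per library the medians became 3.95, 3.63 and 3.87 in ND and 3.63, 3.23 and 3.54 in HFD. With the same floor the medians of the licensing and fork lists were 2.50 and 2.72 in ND and 2.08 and 2.43 in HFD. Single genes crossed this order, and Cenpa and Smc4, which other cells also held, had smaller ratios than Rrm2 in ND. Cenpa, the histone H3 variant that marks centromeres, stood at 205 against 28.3 CPM in ND and 306 against 23.3 CPM in HFD. Smc4, a core subunit of condensin, stood at 263 against 44.6 CPM and 233 against 41.9 CPM.

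Cyclins differed by the phase they serve. Ccna2, the cyclin of S phase and G2, was at 138 CPM in ND and 150 CPM in HFD, with 0.863 and 0.577 CPM expected. Ccnb1 and Ccnb2, the mitotic cyclins, were at 77.5 and 104 CPM in ND and at 70.1 and 131 CPM in HFD, and Cdk1, their kinase, at 145 and 164 CPM. The D-type cyclins of G1 were not raised to 2-fold in either library. Ccnd1 had a ratio of 1.27 in ND and 1.49 in HFD, Ccnd2 0.783 and 0.948, Ccnd3 1.35 and 1.15, and Cdk6, a kinase partner, 1.10 and 1.5. Cdk4, the other partner, was 2.95-fold and 2.31-fold higher. The 9 of 13 cyclin and kinase genes past 2-fold in each library were those of the later phases and Cdk4.

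Inhibitors of the cycle were split between higher and lower. Of 11 that entered, 4 were at least 2-fold higher in each library, and the same 4 were named in both: Cdkn2c and Cdkn2d, inhibitors of Cdk4 and Cdk6, Cdkn3, a phosphatase of cyclin-dependent kinases, and Rbl1, the pocket protein p107. Cdkn1a, the p21 inhibitor, stood at 576 CPM against 738 expected in ND, a ratio of 0.780, and at 240 CPM against 977 expected in HFD, a ratio of 0.246. Cdkn1c, the p57 inhibitor, had ratios of 0.657 and 0.142, and the antiproliferative gene Btg2 0.691 and 0.487. These 3 were the genes at least 2-fold lower in HFD, and none reached that in ND. The list as a whole had 1968 UMIs against 2563 expected in ND and 1057 against 2014 in HFD.

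The transcription factors of the program were raised in part. At least 2-fold higher were 9 of 15 in ND and 6 of 14 in HFD. Foxm1, the activator of mitotic genes, stood at 49.9 CPM in ND and 55.3 CPM in HFD, with 1.0 and 7.52 CPM expected. E2f8, an atypical repressor of the E2F family, was at 23.4 and 37.7 CPM, with 0.412 and 0.809 CPM expected. Mybl2, which encodes B-Myb, was at 25.5 CPM in ND against 0.827 expected, and at 9.43 CPM in HFD against 10.6 expected. E2f4, mainly a repressor in resting cells, had ratios of 1.04 and 1.32, and Myc 1.6 and 1.73.

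Among genes of cyclin destruction, 7 of 8 were at least 2-fold higher in each library. Cdc20, the activator of the anaphase-promoting complex, stood at 119 CPM in ND and 95.7 CPM in HFD, with 2.05 and 5.63 CPM expected. The exception was Pttg1, or securin, the inhibitor of sister separation, with 35.7 CPM against 59.7 expected in ND and 45.8 against 39.8 in HFD. Of the abundant chromatin and tubulin genes, 11 of 12 were at least 2-fold higher in each library. Stmn1, a microtubule-destabilising protein, stood at 817 CPM against 41.0 expected in ND and 842 against 68.8 in HFD, and Hmgb2, a chromatin protein, at 1954 against 270 and 1775 against 274 CPM. H2afz, Tubb5 and Hmgb2 were found in at least 62 of 63 HFD and 76 of 77 ND cycling cells. Stmn1, H2afz, Hmgb2 and Tubb5 had been picked by the study as genes of such cells on these same libraries, so their level here is no independent evidence. Tubb4b alone stayed below 2-fold, at 1.5 and 1.67.

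The promoters of 4 rule genes and of Mcm5 carry the DNA words by which S phase and mitotic genes are usually told apart, and are shown for that reason. The windows run from 250 bases before to 50 bases after the start site in RefSeq, on build GRCm38.p6, each written along its gene's strand. Capitals mark matches on either strand of the cell cycle homology region (CHR, TTTGAA), the CCAAT box (CCAAT) and the E2F word (TTTCCCGC, TTTGGCGC, TTTGCCGC or TTTCGCGC). Ube2c is at chr2:164769679-164769978 (plus strand), Top2a at chr11:99024140-99024439 (minus), Mki67 at chr7:135716330-135716629 (minus), Pclaf at chr9:65890073-65890372 (plus) and Mcm5 at chr8:75109259-75109558 (plus).
Ube2c: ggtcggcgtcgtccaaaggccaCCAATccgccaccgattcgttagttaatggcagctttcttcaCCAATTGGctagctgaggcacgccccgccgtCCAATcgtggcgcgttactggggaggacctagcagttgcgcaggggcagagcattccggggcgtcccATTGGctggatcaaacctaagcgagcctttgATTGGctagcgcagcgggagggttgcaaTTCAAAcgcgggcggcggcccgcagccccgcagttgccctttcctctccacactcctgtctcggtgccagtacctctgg
Top2a: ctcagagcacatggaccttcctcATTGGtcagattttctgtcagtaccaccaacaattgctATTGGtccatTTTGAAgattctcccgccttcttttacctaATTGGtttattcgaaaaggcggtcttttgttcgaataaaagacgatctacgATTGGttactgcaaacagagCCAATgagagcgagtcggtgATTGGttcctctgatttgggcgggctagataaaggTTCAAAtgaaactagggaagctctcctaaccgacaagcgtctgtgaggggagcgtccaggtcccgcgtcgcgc
Mki67: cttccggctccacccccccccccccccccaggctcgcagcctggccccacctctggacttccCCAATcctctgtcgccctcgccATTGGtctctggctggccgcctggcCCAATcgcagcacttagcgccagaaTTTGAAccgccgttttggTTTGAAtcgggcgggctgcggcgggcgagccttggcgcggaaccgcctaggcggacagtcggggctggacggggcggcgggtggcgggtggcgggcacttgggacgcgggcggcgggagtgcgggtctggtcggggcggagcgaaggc
Pclaf: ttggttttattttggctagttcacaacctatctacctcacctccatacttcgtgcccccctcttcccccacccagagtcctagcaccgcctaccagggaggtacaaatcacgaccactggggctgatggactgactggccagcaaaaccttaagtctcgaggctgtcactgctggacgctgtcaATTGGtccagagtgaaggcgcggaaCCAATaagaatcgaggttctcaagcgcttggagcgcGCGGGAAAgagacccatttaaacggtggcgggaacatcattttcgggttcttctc
Mcm5: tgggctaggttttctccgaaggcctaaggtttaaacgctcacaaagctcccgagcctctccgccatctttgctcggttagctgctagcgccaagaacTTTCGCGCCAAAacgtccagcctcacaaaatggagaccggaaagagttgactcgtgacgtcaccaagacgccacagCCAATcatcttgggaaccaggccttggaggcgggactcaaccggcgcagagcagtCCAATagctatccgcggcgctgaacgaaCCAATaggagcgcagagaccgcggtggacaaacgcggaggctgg

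Ube2c held 1 CHR word 29 bases upstream of its start site, and Top2a and Mki67 held 2 each. Pclaf held 1 E2F word, and Mcm5 held 2 that overlap each other. In Ube2c 2 CCAAT words on opposite strands overlap in the same way. All 5 windows held CCAAT boxes, from 2 in Pclaf to 6 in Ube2c and in Top2a. Neither Birc5 nor Nusap1 held any of these words in its window. A word is a description of the letters, not of a bound factor.

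Over the lists the words divided by phase. Of a list of 49 G2/M genes, 42 were matched to 47 windows, and 31 of these (66.0%) held a CHR word, against 6 of 34 windows (17.6%) of 31 matched genes of a list of 43 S genes and 17.9% of all 32851 windows. The E2F word was in 12 of 34 S windows (35.3%), 3 of 47 G2/M windows (6.38%) and 2.26% of all windows. CCAAT boxes were in 67.6% of the S and 76.6% of the G2/M windows, against 37.4% of all. A CHR word together with a CCAAT box was in 24 of 47 G2/M windows (51.1%) and 4 of 34 S windows (11.8%), against 6.95% of all windows.

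The same S and G2/M lists were summed in each cell to see how the cells spread over the cycle. The S share, the UMIs of the S list as a percentage of both lists, had a median of 28.8% in the 77 ND cells and ranged from 1.56 to 72.2%. In the 63 HFD cells the median was 22.3% and the range 3.15 to 66.7%. Both libraries thus held cells at either end. The lists differ in abundance, and the other cells had an S share of their summed UMIs of 32.6% in ND and 32.1% in HFD. More S than G2/M UMIs were held by 14 ND and 7 HFD cells. The rule genes followed this order. Cells with Pclaf but no Ube2c had a median S share of 47.2% in ND (22 cells) and 42.4% in HFD (11 cells), and cells with Ube2c but no Pclaf 12.6% (15 cells) and 20.1% (6 cells).

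**Figure D4:**
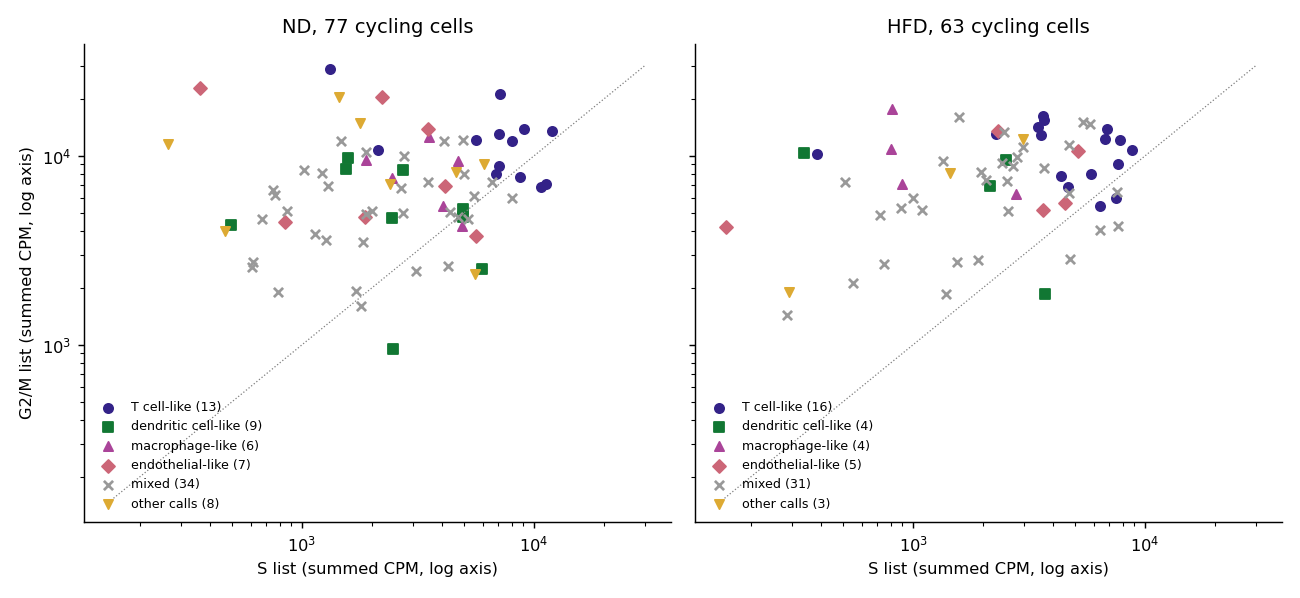
Each symbol is 1 cycling cell, placed by its summed CPM of 43 S genes (horizontal, log axis) and 49 G2/M genes (vertical, log axis), with the lineage call as symbol and the dotted line marking equal CPM. T cell-like cells lay above the median of all cycling cells of their library on both axes in 10 of 13 ND and 9 of 16 HFD cells, and endothelial-like cells spread widely along the S axis.

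As medians, T cell-like cells had the highest levels of both lists among the calls with at least 4 cells in each library. Their S list had a median of 7114 CPM in ND and 5244 CPM in HFD, and their G2/M list 11959.5 and 11391 CPM, while all cycling cells had medians of 2712 and 2708 CPM for S and 6961 and 7986 CPM for G2/M. Their median S share was 40.1% in ND and 35.6% in HFD. Endothelial-like cells had a median S share of 20.2% in ND (7 cells, 1.56 to 60%) and 32.6% in HFD (5 cells, 3.57 to 44.5%). Macrophage-like cells had 28.9% in ND (6 cells) and 9.05% in HFD (4 cells), with ranges of 16.7 to 53.6% and 4.40 to 30.7% that overlapped. T cell-like cells were also shallow among cycling cells, at a median of 4546 and 5220 UMIs, and the bearing of depth on CPM per cell was not tested.

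Most genes of the 10 lists stood at close levels in the cycling cells of the 2 diets. Of 154 cell cycle genes with at least 10 UMIs in the cycling cells of both libraries together, 1 was at least 2-fold higher in HFD and 4 were at least 2-fold lower, while 7.02 and 8.87% of all 10288 genes were so. The median log2 ratio of HFD over ND was 0.01 over these genes and -0.04 over all genes. No list had a median beyond 0.23 in either direction. Tubb5, a beta tubulin, stood at 1562 CPM in ND and 1596 CPM in HFD, and Cdk1 at 145 and 164 CPM. Over the S and G2/M lists, 1 of 42 S genes and 0 of 49 G2/M genes with at least 10 UMIs were at least 2-fold apart. The 1 gene was Ung, the uracil glycosylase of replicated DNA, named after its values were seen, with 22 UMIs in ND and 3 in HFD and a log2 ratio of -2.47 (-4.86 to -0.74).

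**Figure D5:**
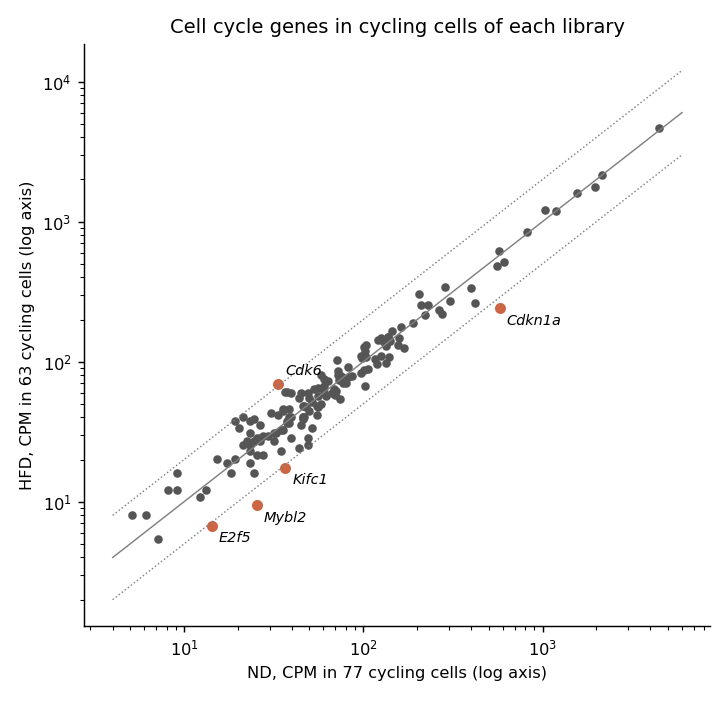
Summed CPM of cell cycle genes in the 77 ND (horizontal) and 63 HFD (vertical) cycling cells, both on log axes, with lines for equality (solid) and 2-fold (dotted). Points keep near equality over the whole range, and the 5 coloured genes, Cdk6, Cdkn1a, Mybl2, E2f5 and Kifc1, lie on or outside the 2-fold lines.

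Of the genes of the 10 lists past 2-fold, Cdkn1a had the most UMIs. It stood at 576 CPM (529 to 625) in ND and 240 CPM (206 to 278) in HFD, a log2 ratio of -1.26 (-1.51 to -1.02), and -1.25 with lineages given the same weight. In the other cells the order was reversed, with 738 CPM in ND and 977 CPM in HFD. Each of these values was weighted to the lineage mix of its own library's cycling cells, and the mixes differ. Mybl2 stood at 25.5 CPM in ND and 9.43 CPM in HFD, with 25 and 7 UMIs and a log2 ratio of -1.43 (-2.89 to -0.18). Kifc1, a spindle motor, had 36 and 13 UMIs and a log2 ratio of -1.07 (-2.11 to -0.12), and E2f5 14 and 5 UMIs with an interval that included 0. Cdk6 had 33 and 51 UMIs and a log2 ratio of 1.03 (0.37 to 1.71), which was 0.81 with lineages given the same weight.

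Outside these lists, the genes with the largest ratios of cycling over other cells were mostly further parts of the same machinery. Neil3, a DNA glycosylase of replicating cells, had 37 UMIs in 25 ND cells and 26 in 22 HFD cells. Esco2, which makes sister chromatids cohere, had 51 and 28 UMIs, Iqgap3, a scaffold of proliferating cells, 67 and 38, and Aspm, a spindle pole protein, 63 and 33. The histone genes Hist1h1b and Hist1h2ap, with 62 and 304 UMIs in ND and 41 and 104 in HFD, belong to near-identical families whose reads may be shared. Hist1h2ap was lower in HFD than in ND cycling cells by a log2 ratio of -1.14 (-1.48 to -0.82). C330027C09Rik had 50 and 40 UMIs. The remaining 3 were Camp and Ngp, described above, and Cemip, a hyaluronan-degrading protein, with 149 UMIs in 4 HFD cells and 0 in ND.

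The genes with the largest deficit had 0 UMIs in all 140 cycling cells. Expected were 501 UMIs of Wfdc2, 167 of Lypd2, 120 of Cyp2a5, 106 of Sftpa1, 72.7 of Tff2, 58.4 of Muc5b, 55.3 of Gsta3 and 50.8 of Pigr, genes mostly of airway and lung epithelium, and nearly all from ND. The others were Mmp3, a matrix metalloproteinase, with 54.4 UMIs expected, and Cd209f, a macrophage lectin, with 59.8. The epithelial list did not reach 3 markers in any cycling cell, while 29 ND cells outside the cycle were epithelial-like. The 34 mixed ND members were weighted against 954 other mixed ND cells, of which 45 reached the epithelial list and held 6584 of the 6630 Wfdc2 UMIs of these mixed cells, so the deficit was set against mixed cells of another makeup.

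The genes that differed most between the cycling cells of the diets were globin, contractile, matrix, neutrophil, fat cell and macrophage genes, each held by a minority of the cycling cells. Higher in HFD were Hbb-bt, a beta globin, by a log2 ratio of 6.65, the contractile genes Tagln (6.21) and Acta2 (4.85), Timp1, a protease inhibitor (5.49), and Col1a1, a collagen chain (5.37). Hbb-bt was found in 21 of 63 HFD and 5 of 77 ND cells and Pglyrp1 in 4 and 14. Tagln was found in 10 and Acta2 in 12 of 63 HFD cells, and 1 HFD cell with 61381 UMIs, with fibroblast, smooth muscle and macrophage markers, held 52.5% of the Tagln and 46.1% of the Acta2 UMIs. Lower in HFD were the neutrophil genes S100a8 (-5.12) and S100a9 (-4.31), Car3, a carbonic anhydrase of fat cells (-4.69), Cd5l, a macrophage protein (-4.19), and Pglyrp1, a peptidoglycan receptor (-4.15). The ratios were also taken without the cell with the most UMIs of the gene in each library. The log2 ratios were then 7.52 for Hbb-bt, 6.32 for Tagln, 6.43 for Acta2, 5.65 for Timp1 and 5.94 for Col1a1. For the genes lower in HFD they were -7.16 for S100a8, -5.89 for S100a9, -4.91 for Car3, -2.82 for Cd5l and -3.75 for Pglyrp1. These genes were picked for their large ratios in these same cells, so a kept direction is no support. Several rested on few UMIs in 1 library, such as 3 HFD UMIs of Car3 and of Cd5l and 4 ND UMIs of Hbb-bt and of Timp1. Without the top 6% of doublet scores they moved to 8.65 for Acta2, 7.66 for Tagln, 6.85 for Col1a1, -6.63 for S100a8, -5.37 for S100a9 and -2.25 for Cd5l, and with lineages given the same weight to -4.07 for S100a8 and -3.07 for S100a9. Hbb-bt was also higher in the HFD cells that were not cycling, with 301 CPM expected from them in ND and 2653 CPM in HFD. It was found in 30.1% of the other HFD and 6.01% of the other ND cells, and in 33.1 and 6.33% of endothelial-like cells, which should lack it, while 13 HFD cells and 1 ND cell were erythroid-like. The part of free RNA in it was not tested.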

How the data were processed

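Single cells of 2 libraries were analysed, 1 per diet. The authors deposited filtered matrices of whole-number UMI counts per gene and barcode, per the file headers from Cell Ranger 3.0.1; the submitters' processing notes name mm10, UMI-tools, Seurat 3.2.0 and R 4.0.0. A matrix of both libraries together was not used. Barcodes were kept if they reached 200 genes and 200 UMIs and mitochondrial genes took no more than 30% of the UMIs, 5416 of 10234 in ND and 2739 of 14225 in HFD, with medians of 3732 and 5336 UMIs. No kept cycling cell shared its barcode with the other library. No cells were removed as doublets: Scrublet (in scanpy 1.11.5) called 0 cells in ND and 1 in HFD, which is too few to have worked, so the top 6% of its scores served as an alternative. Sums of counts were scaled to CPM, the UMIs of a gene per 1000000 UMIs of the cells summed. With 1 library per diet no test was run. Named genes were the rule genes, list genes with the most UMIs or extreme ratios, the 10 highest and 10 lowest ratios outside the lists with at least 50 UMIs, and the 5 largest differences each way between diets. State genes of the named lineages were described from fixed lists, and the neutrophil genes were chosen after their values were seen. The members and lists were chosen with earlier results of these data known. Ratios were tested on simulated data. Alternatives changed the rule, depth, doublets, markers, weighting, scaling and filters. Promoters came from RefSeq on GRCm38.p6.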

Additional observations from a re-analysis of the deposited data

Results flagged for a closer look

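Barcodes that the quality filter had left out also held cells that met the rule of 3 genes. They were 5 of 4818 left-out ND barcodes (0.104%, exact interval from 0.0337 to 0.242%) and 21 of 11486 left-out HFD barcodes (0.183%, 0.113 to 0.279%), set against limits of 0.0623 and 0.0261%, which are 3 counts of the total. The ND interval reaches below its limit and the HFD interval lies above it. Their median share of mitochondrial UMIs was 59.9% in ND and 36.8% in HFD, and they enter no value above.

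A further 4 genes had ratios of cycling over lineage-weighted other cells on opposite sides of 1 in the 2 libraries, with intervals that did not include 1. The difference was not tested, since each diet has 1 library. Tagln had a ratio of 0.106 in ND and 7.86 in HFD, Acta2 0.221 and 7.51, and Col1a1 0.157 and 13.1. Cd5l had a ratio of 17 in ND and 0.0457 in HFD, with 75.2% of its ND UMIs in 1 cell.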

How the results depend on the processing

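No paired analysis was possible because each diet had 1 library and no replicate. The share of cycling cells stayed higher in HFD than in ND under all 6 alternatives. It moved beyond its interval after thinning (0.280% in ND, 0.694% in HFD), with at most 20% mitochondrial UMIs (2.12 and 3.73%), without mixed cells (0.971 and 1.63%) and, in HFD, with 2 rule genes (3.21%). With 2 markers the mixed share of cycling cells was 74.0% in ND and 69.8% in HFD, and that of T cell-like cells 9.09%, of dendritic cell-like cells 5.19% and of macrophage-like cells 0% in ND, and of macrophage-like cells 0% in HFD. With mixed cells given to the leading list, chosen after seeing the data, endothelial-like cells were 27.3% of cycling cells in ND and 27.0% in HFD, macrophage-like cells 15.9% in HFD and mixed cells 6.49 and 1.59%, while 0.800 and 1.22% of endothelial-like cells and 6.67 and 1.49% of mixed cells were cycling. After thinning, the cycling share was 2.27% of dendritic cell-like, 0% of macrophage-like, 0.0925% of endothelial-like and 0.203% of mixed cells in ND, and 36% of T cell-like, 1.59% of dendritic cell-like, 0.238% of macrophage-like, 0.102% of endothelial-like and 0.908% of mixed cells in HFD. The list genes at least 2-fold higher in HFD numbered 2 without mitochondrial, haemoglobin and ribosomal protein genes and 3 without the top doublet scores. The causes were not tested beyond the construction of each alternative. The other 79 values for the comparisons stayed within their interval or within 1.5 times the count. The order of ND and HFD turned in 6 of 51 pairs of values. It turned for the endothelial-like share of cycling cells with 2 markers (3.90% in ND, 6.35% in HFD), for the mixed share with 2 markers and with the leading list, for the macrophage-like share with the leading list (11.7 and 15.9%), for the cycling share of mixed cells with the leading list and for that of macrophage-like cells after thinning, so no order between the diets is read from these 5 shares. Of the single genes named for the diets, 13 of 49 values moved beyond their interval. None changed its sign, but these genes were picked for their large ratios, so this is no support. Depth limits which cells can meet the rule, and with 1 library per diet no difference can be set against the spread between animals.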
